A study of Mus musculus with 10 samples.

Results

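Accessible chromatin around the 4 genes that encode the beta subunits of voltage-gated calcium channels, Cacnb1, Cacnb2, Cacnb3 and Cacnb4, was examined in mouse sperm by ATAC-seq, which tags open DNA by transposase insertion. The members were chosen by measured values of this same diet comparison: a region upstream of Cacnb2 had peaks in every F0 WD library and no F0 CD library, and a region near a Cacnb2 transcript start had peaks in F0 CD libraries only. Around each gene body a window was drawn with 100 kb on either side, and peak intervals of all libraries that overlapped by at least 1 bp were merged into regions. The windows held 76 of the 113493 merged regions of the series. Of these, 21 were consensus regions, which had a peak in at least 2 libraries, against 24763 consensus regions in the series.

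Mature sperm came from the cauda epididymis of wild-type C57BL/6JRccHsd males. The F0 CD group (6 libraries) received a control chow diet and the F0 WD group (4 libraries) a Western diet, both for 6 months from 4 weeks of age, with 1 library per mouse. The group sizes follow the sample titles; another passage of the labels gives the sizes the other way round. The peak lists held between 13601 and 29532 intervals in F0 CD and between 13366 and 19526 in F0 WD, and the fewest reads under any called summit of a library ranged from 9 to 13. Total read numbers were not analysed here. A peak within 1 kb of a start site was found for 1 of 9 sperm and late germ cell genes (Prmt2 in 1 library, a weak marker of sperm; the protamine, transition protein, acrosome and flagellum genes of the list had none), for the testicular germ cell gene Kit in 1 library, for 1 of 5 epithelial genes (Lcn5, in 1 library) and for 0 of 3 leukocyte genes. Among all 21755 protein-coding genes, 21.7% had a promoter peak in any library and 6.92% in at least 2.

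Beta subunits are cytoplasmic proteins that bind the intracellular linker of the pore-forming subunit of high-voltage-activated calcium channels. They bring the channel to the plasma membrane and tune its opening, and RGK proteins bind them and reduce the current. Cacnb1 is best known from skeletal muscle excitation-contraction coupling, Cacnb2 from the heart, Cacnb3 from neurons and smooth muscle, and Cacnb4 from the brain, where its loss causes the ataxia and seizures of the lethargic mouse. A peak in sperm chromatin marks a stretch of DNA that was open to the transposase and does not measure a transcript or a protein. In a library of many sperm, a site open in a few cells and a site weakly open in many cannot be told apart.

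The sequences at the regions that the results below turn on are shown here on the plus strand of GRCm38 (mm10), with the longest CA or TG run of at least 12 bases in capitals and no capitals where there is none. They include the diet-separated Cacnb2 region (81 bases around its strongest summit, chr2:14564781-14564861), the whole Cacnb2 region near the Cacnb2-206 start (chr2:14981514-14981725), the summit found in the most libraries at Cacnb4 (chr2:52463137-52463217), and the whole regions at the Cacnb4 start (chr2:52676695-52676922) and just upstream of it (chr2:52677462-52677731).
Cacnb2 upstream summit: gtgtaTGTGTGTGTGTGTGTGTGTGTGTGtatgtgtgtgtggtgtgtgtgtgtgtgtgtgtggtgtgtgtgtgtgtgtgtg
Cacnb2 intron 11 region: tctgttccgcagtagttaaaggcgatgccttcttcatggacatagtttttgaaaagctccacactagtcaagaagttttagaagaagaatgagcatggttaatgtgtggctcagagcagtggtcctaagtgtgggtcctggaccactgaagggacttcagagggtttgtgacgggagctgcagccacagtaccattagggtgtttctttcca
Cacnb4 intron 9 summit: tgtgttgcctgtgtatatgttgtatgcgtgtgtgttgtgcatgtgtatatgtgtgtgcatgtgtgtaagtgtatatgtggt
Cacnb4 start region: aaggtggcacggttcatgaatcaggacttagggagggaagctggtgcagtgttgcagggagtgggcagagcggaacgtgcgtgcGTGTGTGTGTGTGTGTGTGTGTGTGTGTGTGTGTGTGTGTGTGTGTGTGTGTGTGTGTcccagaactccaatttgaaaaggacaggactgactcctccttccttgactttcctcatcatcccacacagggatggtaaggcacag
Cacnb4 upstream region: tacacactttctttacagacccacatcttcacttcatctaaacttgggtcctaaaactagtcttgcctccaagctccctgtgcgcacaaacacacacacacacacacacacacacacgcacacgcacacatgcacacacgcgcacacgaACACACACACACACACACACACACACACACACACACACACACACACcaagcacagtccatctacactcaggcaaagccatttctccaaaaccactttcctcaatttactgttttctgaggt
Of these 5 stretches, the Cacnb2 intron 11 region alone lacked an array of alternating CA or TG bases. The arrays were of different kinds. The Cacnb4 start region held 29 uninterrupted GT units and the region upstream of it 23 AC units, whereas the longest run in the Cacnb4 intron 9 region had 4 units, in an array broken by other bases.

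Cacnb2 (ENSMUSG00000057914.15, chr2:14603088-14987908, plus strand, 384.8 kb) had 27 regions, 11 of them consensus regions. Peaks from both diets made up 6 of the 11, F0 CD alone 4 and F0 WD alone 1. Of all consensus regions of the series, 21.8% had peaks in F0 CD only and 5.26% in F0 WD only, with 6 F0 CD against 4 F0 WD libraries, and since Cacnb2 was chosen on this contrast nothing is read from its counts. Introns held 18 of the 27 regions, 8 lay upstream and 1 downstream. The density was 18.8 consensus regions per Mb of window, above that of 82.8% of protein-coding genes measured in the same way, whose median was 9.08 per Mb. The regions behind the choice of Cacnb2 are among its 11, so this rank is partly set by the choice. Figures for the relatives were 4.51 per Mb at Cacnb1, 9.36 at Cacnb3 and 15.6 at Cacnb4, with 27.9%, 52.4% and 77.2% of genes below. Density was higher at the 2 long genes, Cacnb2 and Cacnb4 (248.5 kb), than at the short ones, Cacnb1 (21.5 kb) and Cacnb3 (13.7 kb).

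**Figure D1:**
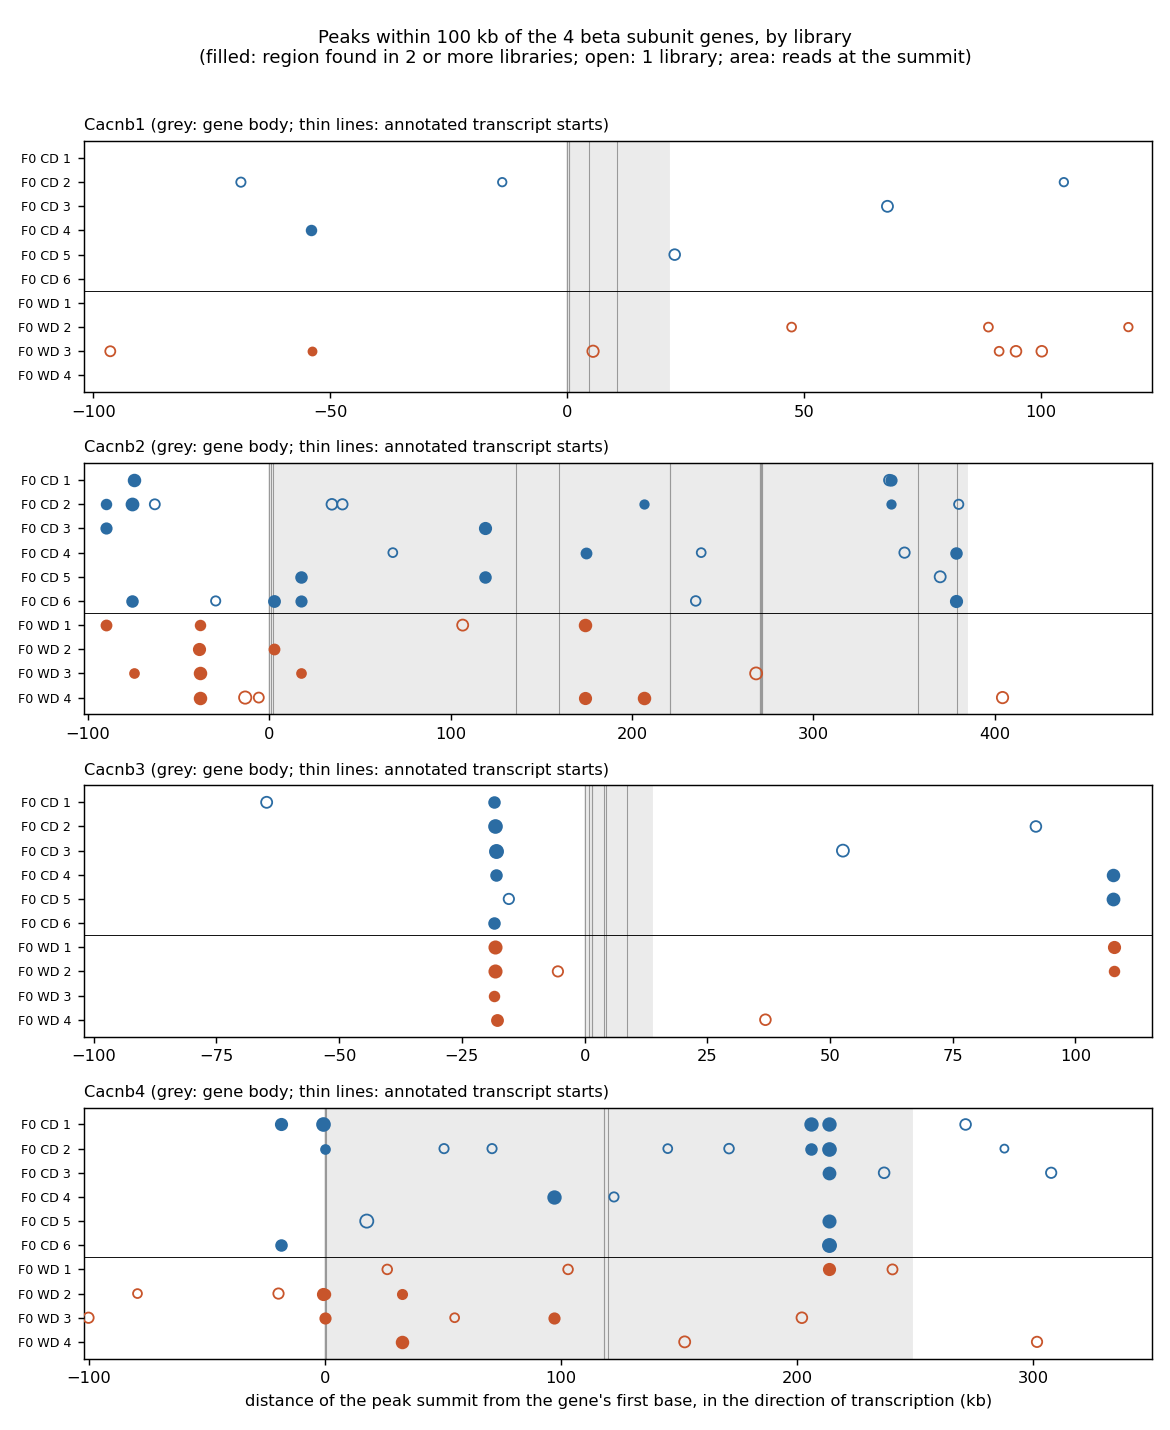
Peak summits in the windows of the 4 genes by library (rows, F0 CD in blue above, F0 WD in orange below) against the distance from the gene's start in kb, counted in the direction of transcription and with an own scale for each gene. Filled circles are the 21 consensus regions, open circles the 55 regions of 1 library, and the area gives reads at the summit, which ranged from 9 to 24; the column of 4 F0 WD circles 38 kb before Cacnb2 and the columns of 9 circles at Cacnb3 and 6 at Cacnb4 are visible.

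The Cacnb2 region that separated the diets spanned chr2:14564603-14564962 in intergenic DNA, 38126 bp upstream of the gene start. Its summits had 13, 18, 19 and 19 reads in F0 WD replicates 1 to 4, and no peak was called in the 6 F0 CD libraries. The fold enrichment, defined as reads plus 1 over local background plus 1, ran from 3.25 to 6.11. Of its 360 bases, 79.2% were repeat-masked and 67.8% lay in CA or TG runs of at least 3 units. The lowest of the 4 F0 WD values stood only 2 reads above the fewest reads at any peak of that library, which was 11. A CD library needed at least 9 to 13 reads for any peak, so absence from the F0 CD lists does not mean absence of reads there. Since this contrast chose the gene, no test is given for the region.

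The other Cacnb2 region behind the choice of the gene, chr2:14981514-14981725, lay in intron 11, 388 bp from the start of Cacnb2-206, a transcript annotated as retained intron that begins 379025 bp downstream of the gene start. Peaks with 16 reads in F0 CD replicate 4 and 18 reads in F0 CD replicate 6 were called, with fold values from 4.46 to 4.70, and none in the other 4 F0 CD or the 4 F0 WD libraries. None of its bases was repeat-masked. A further F0 CD peak, of 12 reads in replicate 2, lay 936 bp from the same start at chr2:14983049-14983248 (intron 12), so that within 1 kb of it 3 libraries of F0 CD and 0 of F0 WD had a peak. Since the intron 11 region was chosen for its F0 CD peaks, nothing is read from this count. Peaks in F0 CD only were found at 21.8% of all consensus regions. The intron 11 region carries the name of a promoter only through this internal transcript, and it lies near the 3' end of the gene.

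At the 5' end, the nearest region was chr2:14605666-14605932 in intron 1, 544 bp downstream of the start of the retained-intron transcript Cacnb2-208 and 1360 bp from that of the coding Cacnb2-203. It had 17 reads in F0 CD replicate 6 and 14 in F0 WD replicate 2, 1 library of each diet. The strongest single-library peak of the window lay at chr2:14871399-14871612 in intron 2, 2043 bp before the cluster of starts led by Cacnb2-201. It had 20 reads in F0 WD replicate 3, with a fold of 6.34, and ranked within the top 4.76% of that list. A GT run of 14 units lay beside its summit.

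The remaining consensus regions of Cacnb2 had 2 or 3 libraries each. The region at chr2:14512910-14513628, 89.5 kb upstream and 311 bp from the start of the noncoding gene Gm13266, had 13 and 15 reads in F0 CD replicates 2 and 3 and 14 in F0 WD replicate 1. In intron 2, chr2:14777283-14777745 had 14 reads in F0 CD replicate 4 and 19 and 18 in F0 WD replicates 1 and 4, without a CA or TG array. Also in intron 2, chr2:14620504-14620796 had 16 and 15 reads in F0 CD replicates 5 and 6 and 11 in F0 WD replicate 3, with a run of 25 units. In each of these 3 regions both diets were represented, as in chr2:14528436-14528695 upstream (19 reads in F0 CD replicate 1, 11 in F0 WD replicate 3) and chr2:14809809-14810035 in intron 2 (10 reads in F0 CD replicate 2, 19 in F0 WD replicate 4). The F0 CD-only regions besides the one in intron 11 were chr2:14527397-14527694 (20 and 16 reads in replicates 2 and 6, with a run of 25 AC units), chr2:14722146-14722361 (18 and 16 reads in replicates 3 and 5, no repeat) and chr2:14945519-14945814 (15 and 10 reads in replicates 1 and 2). Each rested on 2 of 6 F0 CD libraries, a different pair each time.

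**Figure D2:**
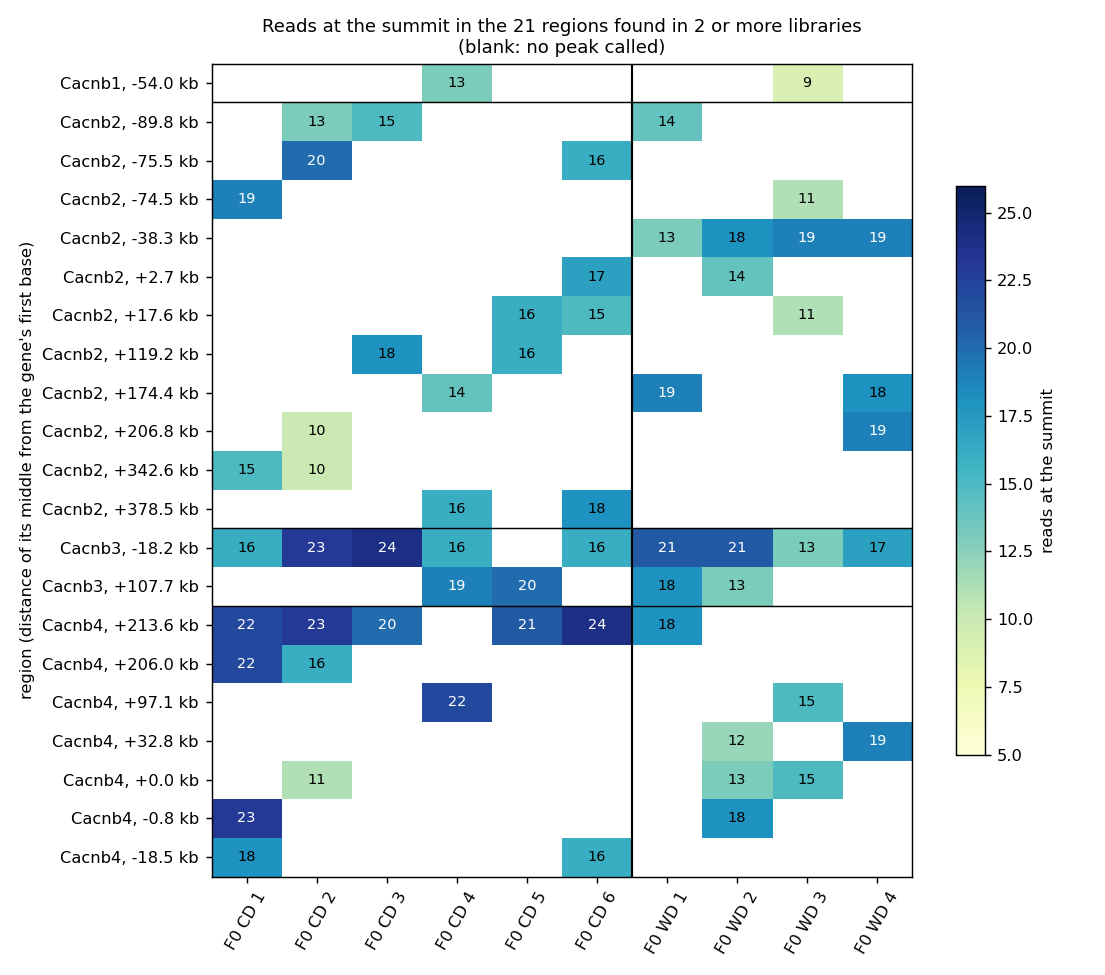
Reads at the summit (number and colour) in the 21 consensus regions (rows, named by gene and by the distance of the region's middle from the gene's start) for the 10 libraries (columns), blank where no peak was called. The Cacnb3 row at -18.2 kb is filled in 9 libraries and the Cacnb2 row at -38.3 kb in the 4 F0 WD libraries; most other rows hold 2 values.

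Cacnb4 (ENSMUSG00000017412.15, chr2:52428320-52676831, minus strand) also had 27 regions, 7 of them consensus, with both diets in 4, F0 CD alone in 2 and F0 WD alone in 1 (21.8% and 5.26% of consensus regions in the series). Its widest-shared region, chr2:52463036-52463343 in intron 9, had 22, 23, 20, 21 and 24 reads in F0 CD replicates 1, 2, 3, 5 and 6 and none called in replicate 4. In F0 WD only replicate 1 had a peak, of 18 reads, below all 5 F0 CD values in reads. Against local background it was not lowest: its fold was 4.32, within the F0 CD range of 3.87 to 6.12. Detection in 5 of 6 against 1 of 4 libraries did not pass the two-sided exact test of Fisher (p = 0.190; adjusted p = 1 by Benjamini-Hochberg over all consensus regions). With F0 CD replicate 4 left out, or with F0 WD replicate 1 left out, Fisher's exact p was 0.0476, and its adjusted p was 1 in both cases. These are the F0 CD library without the peak and the F0 WD library with it, so leaving either out must widen the contrast. Leaving out any other library gave no call here.

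Cacnb4 was the member with a region over its outermost annotated start, that of a coding transcript. The region chr2:52676695-52676922 covered the start of Cacnb4-201 and had 11 reads in F0 CD replicate 2 and 13 and 15 in F0 WD replicates 2 and 3. The next one, chr2:52677462-52677731, lay 631 bp upstream and had 23 reads in F0 CD replicate 1 and 18 in F0 WD replicate 2. Together the regions gave this start a peak within 1 kb in 2 libraries of each diet. F0 WD replicate 2 was the library present in both regions. The F0 WD-only consensus region, chr2:52643916-52644196 in intron 2, had 12 and 19 reads in replicates 2 and 4, no repeat and no CA or TG run over 2 units (Fisher's exact p = 0.133, adjusted p = 1). Another region near an annotated start was chr2:52554264-52554519 in intron 2, 2190 bp from Cacnb4-204, with 12 reads in F0 CD replicate 4. In intron 2 also lay the strongest single-library peak, chr2:52658935-52659202, with 24 reads in F0 CD replicate 5, a value as high as any in the 4 windows. Exon 4 was touched by a peak of F0 WD replicate 3 with 16 reads.

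The remaining Cacnb4 consensus regions, named outside the rule, had peaks in 2 libraries each. The intron 2 region chr2:52579573-52579822 had 22 reads in F0 CD replicate 4 and 15 in F0 WD replicate 3, and 93.2% of it was repeat-masked. The regions in intron 4 (chr2:52470646-52470939, 22 and 16 reads in F0 CD replicates 1 and 2) and in the neighbouring gene Stam2 (chr2:52695162-52695430, 18 and 16 reads in F0 CD replicates 1 and 6) were without an F0 WD peak (Fisher's exact p = 0.467 each, adjusted p = 1).

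Cacnb3 (ENSMUSG00000003352.14, chr15:98630840-98644529, plus strand) had 8 regions and 2 consensus regions, none of them in the gene body and none within 3 kb of its 7 annotated starts. The nearest region ended 5302 bp upstream. The region shared most widely across the 4 windows lay 17762 bp upstream, at chr15:98612192-98613078, 2116 bp from the start of the adenylate cyclase gene Adcy6. It had 16, 23, 24, 16 and 16 reads in F0 CD replicates 1, 2, 3, 4 and 6, none called in replicate 5, and 21, 21, 13 and 17 reads in F0 WD replicates 1 to 4. The ranges of the diets overlapped, and detection in 5 of 6 and 4 of 4 libraries gave a Fisher's exact p of 1 (adjusted p = 1). With 887 bp it was the widest region of the 4 windows; 92.7% was repeat-masked and 44.0% lay in CA or TG runs. Regions found in at least 9 libraries made up 4.68% of all consensus regions. The other Cacnb3 consensus region, chr15:98738435-98738741, overlapped a UTR of Arf3 and had 19 and 20 reads in F0 CD replicates 4 and 5 and 18 and 13 in F0 WD replicates 1 and 2. The strongest single-library peak of this window had 16 reads in 1 F0 CD library (chr15:98722682-98722902), at 25.1% of its list.

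Cacnb1 (ENSMUSG00000020882.17, chr11:98001508-98023034, minus strand) had 14 regions, of which 1 was a consensus region. This was chr11:98076812-98077311, 53778 bp upstream, with 13 reads in F0 CD replicate 4 and 9 in F0 WD replicate 3, and no repeat. It was among the weakest of the 21, with fold values from 3.02 to 3.87. The only peak in the gene lay in intron 2 at chr11:98017458-98017677, 695 bp from the start of the coding transcript Cacnb1-204, with 18 reads in F0 WD replicate 3 and a fold of 5.59. F0 WD replicate 3 gave 6 of the 14 regions of this window and F0 WD replicate 2 gave 3, while F0 WD replicates 1 and 4 and F0 CD replicates 1 and 6 gave none.

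**Figure D3:**
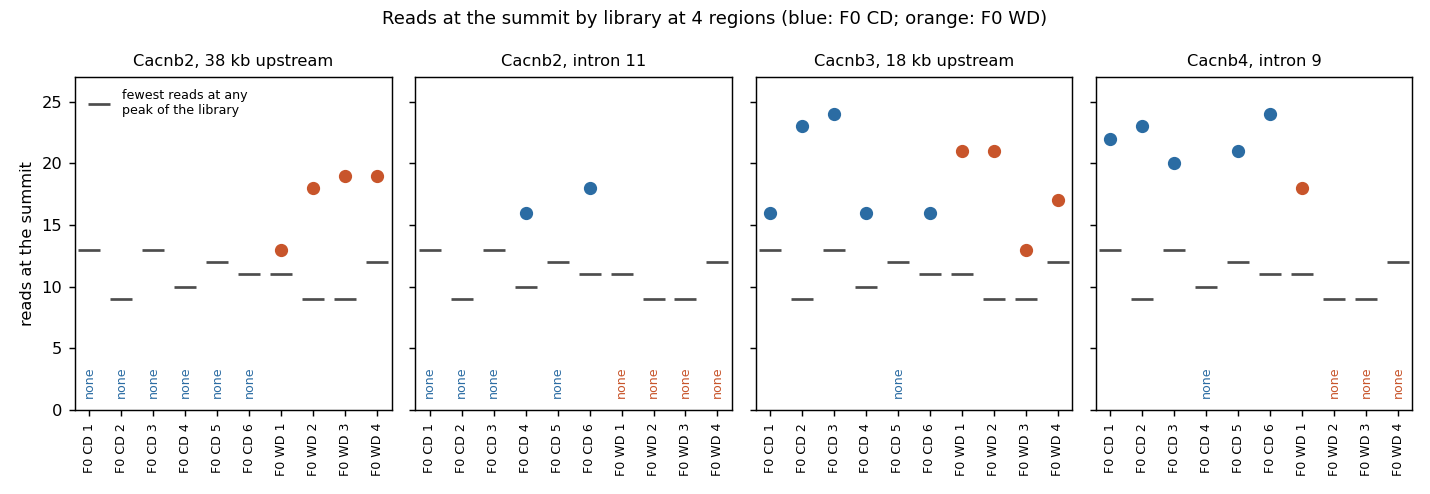
Reads at the summit by library (blue, F0 CD; orange, F0 WD) at the 2 Cacnb2 regions that chose the gene and at the most widely shared regions of Cacnb3 and Cacnb4, with a bar at the fewest reads under any called summit of each library (9 to 13) and "none" where no peak was called. Reads ran from 13 to 19 at the Cacnb2 upstream region, from 13 to 24 at the Cacnb3 region and from 18 to 24 at the Cacnb4 region.

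Start sites were mostly without a peak. Of 36 annotated transcript starts of the 4 genes, 6 had a region within 1 kb, and of the 17 starts of coding transcripts 3 had one. They were those of Cacnb1-204, Cacnb4-201 and Cacnb4-206, the last 113 bp from the region over Cacnb4-201. By gene, Cacnb1, Cacnb2 and Cacnb4 had a start with a region within 1 kb, and Cacnb3 had none. Among all 21755 protein-coding genes, 21.7% had a promoter peak in any library. At Cacnb2 such a region was among those behind the choice of the gene. RefSeq (GRCm38.p6) promoter windows, from 250 bases before to 50 after the start, numbered 9 for these genes, and none overlapped a peak of any library. Among them 5 held at least 25 CpG pairs; the Cacnb2 window at chr2:14604056-14604355 had 35 in 300 bases with a GC content of 71.7%, and the Cacnb4 window at chr2:52676094-52676393 had 40 with 78.3%. Of all 6052 promoter windows with at least 25 CpG pairs, 1.29% overlapped a peak, and of all 32619 windows 2.47% did.

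The number of regions with a peak per library was compared between the diets for each gene. In the Cacnb2 window it was 3, 8, 2, 5, 3 and 6 in F0 CD replicates 1 to 6 and 4, 2, 4 and 6 in F0 WD replicates 1 to 4 (mean 4.5 ± 2.26 SD, n = 6, and 4 ± 1.63, n = 4). The groups overlapped, and no test is given since this gene was chosen on the contrast. Per 10000 peaks of each library, the order of the Cacnb2 means turned, to 2.35 ± 0.73 in F0 CD and 2.48 ± 1.39 in F0 WD (SD), the highest value being 4.49 in F0 WD replicate 4. The F0 WD minus F0 CD difference in regions per library was 1.25 at Cacnb1 (exact two-sided permutation test over 210 splits, p = 0.443), 0.167 at Cacnb3 (exact permutation p = 1) and 0.583 at Cacnb4 (exact permutation p = 0.786). After Benjamini-Hochberg adjustment over these 3 windows each p was 1. Per 10000 peaks the exact permutation p values were 0.286, 0.567 and 0.305. None of the 10 consensus regions of Cacnb1, Cacnb3 and Cacnb4 passed the test of detection (smallest Fisher's exact p = 0.133). Of all 24763 consensus regions, 0.553% were called toward F0 WD and 0.468% toward F0 CD at an unadjusted p under 0.05. The smallest Fisher's exact p that 6 against 4 libraries allow is 0.00476, but not for every region. A region with peaks in 2 libraries cannot go below 0.133, and one with 9 cannot pass either. Most of the 10 were of these kinds, so their lack of a call says nothing about diet. The adjusted p of each of the 10 was 1.

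**Figure D4:**
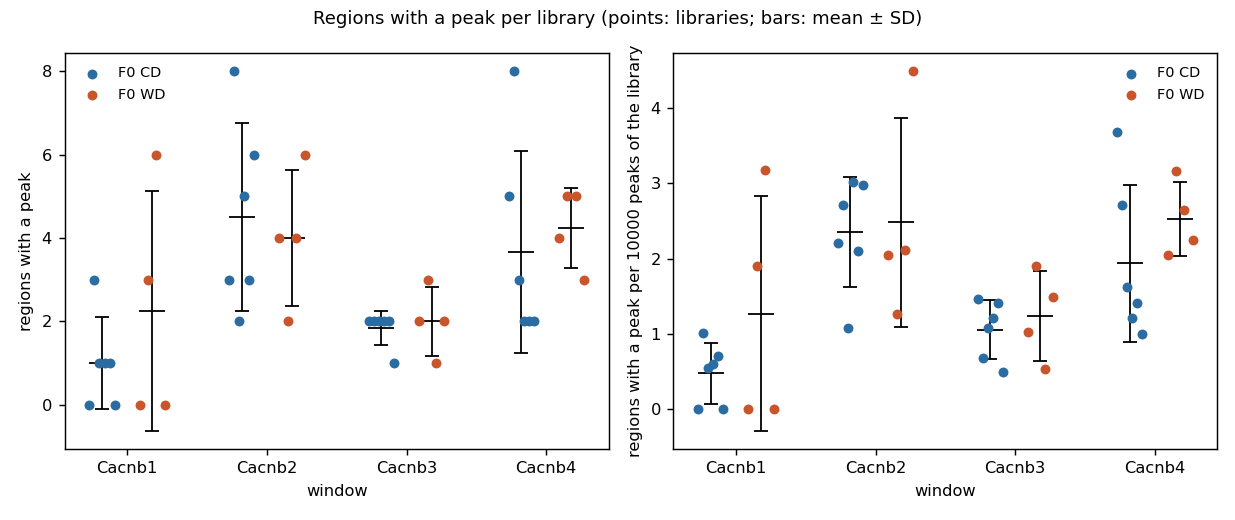
Regions with a peak per library in each window (left) and the same per 10000 peaks of the library (right), with points for libraries and bars for mean ± SD of 6 F0 CD (blue) and 4 F0 WD (orange) libraries. The groups overlap in every window in both panels.

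Peak strength in the windows lay close to that of the series. The 116 peaks of the 4 windows had a median of 16 reads at the summit (range 9 to 24) and a median fold of 3.87, against 16 reads and 3.86 over all peaks. In 67 of the 116 peaks the reads exceeded the fewest of the library's list by 5 at most. Regions of a single library made up 72.4% of the regions here (55, of which 30 in F0 CD and 25 in F0 WD) and 78.2% in the series. Among the 21 consensus regions, 13 had exactly 2 libraries, 4 had 3, 2 had 4, 1 had 6 and 1 had 9; in the series 45.7% of consensus regions had exactly 2.

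Repeats were part of many of these regions. The median share of repeat-masked bases over the 21 consensus regions was 46.3%, against 69.9% over all consensus regions, and 4 of the 21 had no masked base, against 7.70% of all. A CA or TG run of at least 10 units was present in 10 of the 21 (47.6%), against 47.5% of all. The median share of bases in CA or TG runs of at least 3 units was 19.5% here and 27.1% in all. By number of libraries, the median repeat-masked share was 25.7% in the 13 regions with 2 libraries, and the regions with 6 and 9 libraries had 78.6% and 92.7%. No test was made of these differences. The 4 regions without repeats were the consensus region of Cacnb1, those of Cacnb2 in introns 2 and 11 with F0 CD peaks only, and that of Cacnb4 in intron 2 with F0 WD peaks only. The GC content had a median of 47.8%, and 46.1% in all consensus regions.

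**Figure D5:**
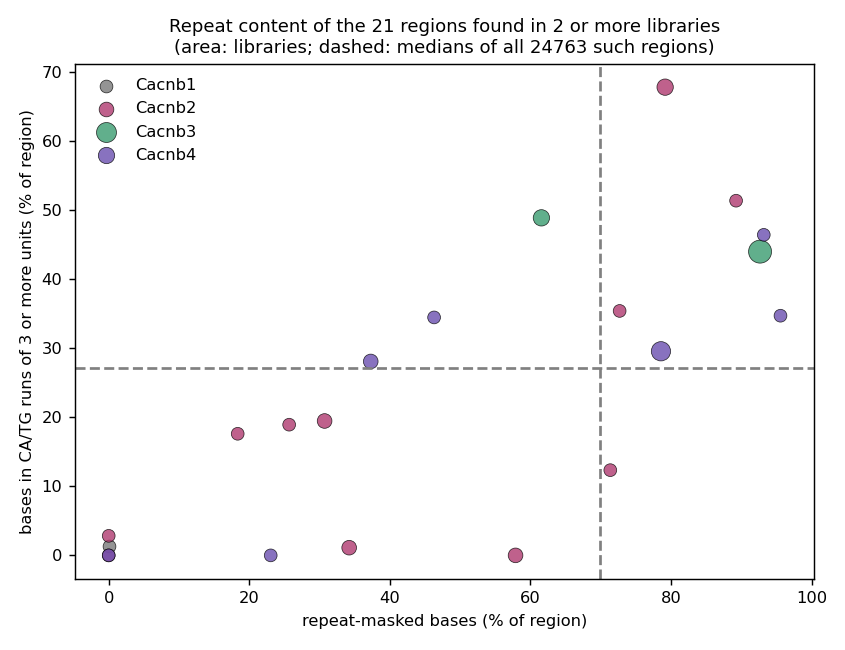
Bases in CA or TG runs of at least 3 units against repeat-masked bases, both as a percentage of the region, for the 21 consensus regions, coloured by gene, with area by number of libraries and dashed lines at the medians of all 24763 consensus regions (27.1% and 69.9%). The Cacnb2 region 38 kb upstream has the highest CA or TG share, 67.8%, and the 2 most widely shared regions lie right of the repeat median.

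The highest reads at the nearest regions inside the borders ran from 10 to 20, and at the nearest outside from 13 to 17. Inside, the upstream Cacnb2 region had peaks in 2 F0 CD and 1 F0 WD libraries, and the downstream Cacnb3 region in 2 of each diet. Each outside region had a peak in 1 library. Some lay far from a border, such as the inside region 19.3 kb downstream of Cacnb2. The region nearest to a border lay 99.9 kb upstream of Cacnb4, inside the window, with 15 reads in 1 F0 WD library, and the next one outside lay 108.4 kb from the gene with 16 reads in 1 F0 CD library. The nearest outside at Cacnb2 lay 127.4 kb upstream and 160.2 kb downstream, with 17 and 14 reads, each in 1 F0 WD library. At Cacnb3 they lay at 116.0 and 111.5 kb, and at Cacnb1 at 164.4 and 172.3 kb, each with a peak in 1 library.

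Other genes of the channel were treated in the same way, in a list drawn up with earlier results of these data known. The windows of 30 genes for pore subunits, alpha2delta subunits, gamma subunits, RGK proteins and the sperm channel CatSper held 634 regions and 126 consensus regions, and 0 of the 126 passed the same unadjusted Fisher's exact test for detection between the diets in either direction, where 0.553% and 0.468% of the series were called. The 10 pore subunit genes had 51 consensus regions, and 8 of the 10 had at least 1. The 4 alpha2delta genes had 26 and the 8 gamma subunit genes 27, with at least 1 at every gene. The 4 RGK genes had 15, and the 4 CatSper genes, which encode the channel of the sperm flagellum, had 8 at 3 of the genes. Of the 126, 28 had peaks in F0 CD only and 7 in F0 WD only, shares close to the 21.8% and 5.26% of the series. The median density over the 30 genes was 14.9 consensus regions per Mb, with a range from 0 to 33.3.

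Genes whose windows varied across libraries most like the members were sought among the protein-coding genes with at least 10 regions (from 14282 to 14298 compared). The measure was Pearson's r over the 10 libraries of the number of regions with a peak, divided by the library's number of peaks. For Cacnb1 the closest genes were Lonrf1 (r = 0.947) and Serpinf1 (r = 0.940), for Cacnb2 Klhl21 (r = 0.931) and Kcnh3 (r = 0.918), for Cacnb3 Gm36028 (r = 0.910) and Rasgrp1 (r = 0.890), and for Cacnb4 Mlana (r = 0.932) and Ermp1 (r = 0.917). They are the highest values of all genes compared and mark no particular relation. An r over 0.8 was reached by 62, 93, 42 and 25 genes for Cacnb1 to Cacnb4. These values are descriptions over 10 libraries, and no test was made of them.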

How the data were processed

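ATAC-seq peak lists of 10 sperm libraries, 1 per mouse, were used. Tools named in the submitters' processing notes are Trim Galore 0.6.10 for trimming, Bowtie2 2.4.5 for alignment to mm10, Picard 2.24.0 for duplicates and MACS2 2.2.7.1, with which the authors called peaks in each library separately. Alignment allowed several placements per read and alignments of quality under 5 were dropped, which bears on sites in CA or TG arrays. Cut positions were corrected for the transposase offset. Only fragments of 50 to 115 bp entered, and MACS2 extended each cut to 200 bp and kept summits at a q of 0.05, so small differences in reads decide whether a weak site is listed. The deposited columns hold a display score, the fold enrichment (a ratio), and -log10 of the p-value and q-value of each summit. From fold and -log10 p, reads at the summit were solved as whole numbers, with a tolerance of 0.001 in 99.999% of the peaks tried; they are not total counts, and the authors' count test was not repeated since lists hold no counts at regions without a peak.

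The members and lists were chosen with earlier results of these data known. Regions were merged and annotated with GENCODE M21, and repeats were read from the soft-masked GRCm38 genome; the number of an intron or exon counts along the longest coding transcript of the gene. Detection was tested with Fisher's exact test per consensus region, with Benjamini-Hochberg adjustment over all 24763, and regions per library with an exact permutation test, for Cacnb1, Cacnb3 and Cacnb4. Regions were named if they lay within 3 kb of a member's start, were among the up to 3 consensus regions of the window with the most libraries, had an unadjusted p under 0.05, were the strongest single-library peak by rank, or were one of the Cacnb2 regions behind the choice; the other regions named were added after their values were seen. Nothing in the labels ties replicates to litters or batches. Alternatives were a q of 0.01, merging over 100 bp, lists of equal length, mid-p values, windows of 50 kb, at least 3 libraries, rates per 10000 peaks, a replicate block and leaving out each library. Python 3.11.15 with scipy 1.17.1, pandas 2.3.3 and numpy 2.4.6, pysam 0.24.0 and samtools 1.23.1 were used, and the tests were checked on simulated data. The sequence of 1 region is not reported here.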

Additional observations from a re-analysis of the deposited data

Results flagged for a closer look

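Among 24 sets of 4 to 6 libraries with differing values, 3 held a library far from the others by Dixon's criterion, where chance flags about 1 in 20. In the Cacnb1 window F0 CD replicate 2 had 3 regions with a peak and the next F0 CD library 1. In the Cacnb3 window F0 CD replicate 6 had 1 region and the other 5 F0 CD libraries 2 each, a difference of a single region. At the Cacnb2 region of chr2:14564603-14564962, F0 WD replicate 1 had 13 reads at the summit and the next F0 WD library 18.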

How the results depend on the processing

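The detection at the 21 consensus regions, including the Cacnb2 regions behind the choice, kept its direction in 59 of 63 recalculations. In 1 more, chr2:14512910-14513628 with lists of equal length, the difference became 0. Many of these outcomes could not differ. Merging over 100 bp changed none of the values. A q under 0.01 and lists of equal length only remove peaks, so regions with peaks of 1 diet could not reverse. The Cacnb1 region turned from 8.33 to -16.7 percentage points (F0 WD minus F0 CD) with a q under 0.01 and with lists of equal length, and the Cacnb2 region at chr2:14528436-14528695 from 8.33 to -16.7 with lists of equal length. With lists of equal length, the Cacnb2 region 38 kb upstream fell from a difference of 100 to 75 points. Over the series, 137 regions were called toward F0 WD and 116 toward F0 CD at an unadjusted Fisher's exact p under 0.05. With each library left out in turn, the F0 WD count ran from 84 (without F0 WD replicate 2) to 245 (without F0 CD replicate 2). The F0 CD count ran from 112 to 284, and was 74 with lists of equal length and 345 with mid-p values. In the Cacnb1, Cacnb3 and Cacnb4 windows the count of called regions was 0, and 1 without F0 CD replicate 4 or without F0 WD replicate 1, the Cacnb4 region in intron 9. The difference in regions per library ran, with a library left out, from 0 to 2 at Cacnb1, from -1.17 to 0.20 at Cacnb2, from -0.17 to 0.50 at Cacnb3, where it was negative without F0 WD replicate 2, and from 0.25 to 1.45 at Cacnb4; per 10000 peaks it was 0.13 at Cacnb2, and with windows of 50 kb it was 0 at Cacnb1, Cacnb2 and Cacnb4 and 0.33 at Cacnb3. Consensus regions fell from 1 to 0 at Cacnb1 with a q under 0.01, 50 kb, 3 libraries, or when F0 CD replicate 4 or else F0 WD replicate 3 was left out, from 11 to 4 at Cacnb2 and from 7 to 2 at Cacnb4 with 3 libraries, and from 2 to 1 at Cacnb3 with 50 kb; with a library left out they ran from 0 to 1, 8 to 11, 2 to 2 and 4 to 7 at Cacnb1 to Cacnb4, with 4 at Cacnb4 without F0 CD replicate 1. Leaving out a library also changed the group sizes, and with them the p values that Fisher's exact test can give. Counts of called regions with a library left out are therefore not directly comparable with the full counts. Beyond this, the cause of the changes was not tested.

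Replicates 1 to 4 of both diets share a number, and the peak lists showed no sign that it pairs them. The correlation of same-numbered deviations over consensus regions ran from -0.011 to 0.036 and that of other pairs from -0.042 to 0.050. Of 4 F0 CD libraries, 1 correlated best with its own number. Whether a batch was shared cannot be told from this. With the replicate block, 0 regions were called toward F0 WD and 0 toward F0 CD, since 4 pairs cannot give an exact p below 0.125, and the Cacnb4 difference was -0.25 regions per library (exact p = 1). Lists without read counts limit what a missing peak means.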
